A study of Mus musculus with 17 samples.

Results

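The subject here is the first 35 h of the move from naive culture toward primed pluripotency, read from 4 of the 17 libraries of the series. They were picked out by their labels, at a time when earlier results of these data were known. They are the 2 libraries labelled as 35 h in LFAI and the 2 labelled as L2i outside the daily series. In each case 1 is of the mouse embryonic stem cell line R1 and 1 of the line CGR8. Every culture was in serum-free N2B27 medium with the cytokine LIF, on plates coated with gelatin at 0.1% and a basement membrane extract at 1:200. L2i cells received the GSK3 inhibitor CHIR99021 (3 uM) and the MEK inhibitor PD325901 (0.1 uM), for 10 passages in R1 (passage number 32) and 8 in CGR8 (passage number 31). The 35 h cells had spent 9 (R1, passage number 31) and 7 (CGR8, passage number 30) passages in the same L2i medium before both inhibitors were replaced by FGF2 (12 ng/ml), Activin A (20 ng/ml) and the Wnt secretion inhibitor IWP2 (2 uM). No genetic change is named for either line. Each line contributed 1 library per medium, so a p-value rests on n = 2 per group. The line was a block in the fit, so constant differences between the lines were taken out. A p-value sets the change against how unevenly the lines changed between media, pooled over all 8 libraries of the fit. The other libraries were used for the shared error estimate (LIM, which is IWP2 with PD325901, and LFAI at 4 days, in both lines) or as a side view (a daily R1 series, 1 library a day, with its own day 0).

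The change of medium acts on 3 pathways at a time. CHIR99021 keeps beta-catenin stable and so mimics a Wnt signal, while IWP2 stops cells from releasing Wnt ligands of their own. PD325901 blocks the MEK to ERK cascade, and its removal together with added FGF2 opens that cascade, whose targets include its own brakes, the Sprouty and dual-specificity phosphatase genes. Activin A signals through SMAD2 and SMAD3, the route also used by Nodal in the epiblast of the embryo. LIF signals through STAT3 and was present throughout. The 3 changes were made together, so their separate effects cannot be told apart in this comparison.

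Of 15525 genes tested, 1387 were higher at 35 h than in L2i and 1348 were lower at an adjusted p under 0.05, which is 8.93% and 8.68% of the genes tested (17.6% in either direction). Without adjustment 4843 genes had p under 0.05. All tests named here are edgeR's quasi-likelihood test with the line as a block and Benjamini-Hochberg adjustment over all tested genes. The called rises had a median log2 fold change of 1.49 and the called falls one of -1.37, and 482 rises and 470 falls passed 2 on the log2 scale. Genes called higher took 5.39% (R1) and 5.81% (CGR8) of the summed CPM (TMM-scaled counts-per-million) in L2i and 11.18% and 10.81% at 35 h. Genes called lower went from 10.44% in each line to 4.63% and 5.51%. The counts rest most on R1: without the R1 L2i library 600 genes were higher and 514 lower, and without the R1 35 h library 685 and 487. Leaving out the CGR8 L2i library gave 1002 and 850, and leaving out the CGR8 35 h library 1007 and 988.

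**Figure D1:**
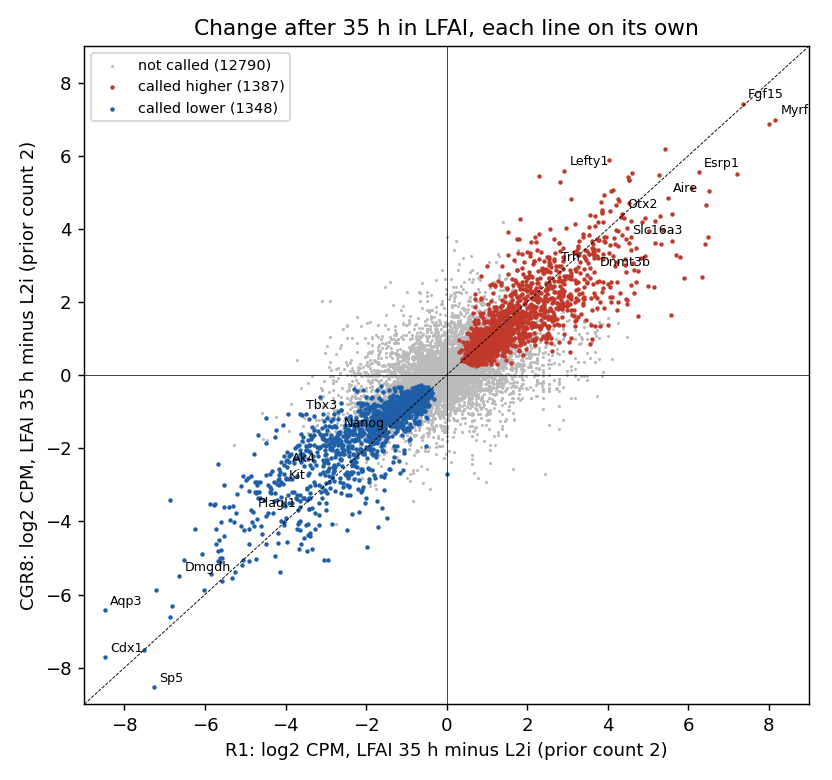
Each point is a tested gene, with its log2 change (TMM-scaled log2 CPM, prior count 2, 35 h minus L2i) in R1 on the horizontal axis and in CGR8 on the vertical axis; red and blue points are the 1387 genes called higher and the 1348 called lower, grey points were not called, and the dashed line marks equal change. Of the called genes, 2734 lie in the quadrant of their call in both lines.

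In 2734 of the 2735 called genes both lines moved the same way, and among the 12790 genes not called this held for 9100. The exception was Acsm4, an acyl-CoA synthetase gene, which had no counts in either R1 library. Its call rests on CGR8 alone. The fit favours genes on which the lines agree, so this share is a description of the calls. Across all tested genes Pearson's r between the R1 and the CGR8 change was 0.773 (genes are not independent replicates). The median size of the called changes was 1.51 on the log2 scale in R1 and 1.25 in CGR8. Among the called genes, 197 higher and 253 lower ones differed by more than 1 on the log2 scale between the lines. Differences in response between the lines were not tested.

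Gene counts per library were 22593805 (R1 L2i), 15135012 (CGR8 L2i), 15850468 (R1, 35 h) and 15392096 (CGR8, 35 h), with 1.29% to 1.95% of them mitochondrial. The labels were set against pluripotency genes first. Pou5f1, the central pluripotency factor, was at 1823 and 1378 CPM in L2i and 1809 and 1609.6 CPM at 35 h and did not pass the test (adjusted p = 0.728). Its partner Sox2 was at 304 and 322 CPM in L2i and 290.1 and 333 CPM at 35 h (adjusted p = 0.978). Both genes were high in every library. Of 12 fibroblast and feeder markers 8 were tested, of which 1 was called higher (Thy1) and 2 lower (Pdgfrb and Col5a1). Without the line as a block 0 were higher and 1 was lower. The summed level of the 8 ran from 22.8 to 42.6 CPM over the 4 libraries. The collagens Col1a1 and Col1a2 stayed under 0.5 CPM in each. Marker lists of other lineages were summed too. In L2i the primitive endoderm list (10 of 16 tested) was at 419.3 and 433.3 CPM and the neural list (12 of 16) at 301.2 and 166.1 CPM. At 35 h they were at 191.8 and 301.8 CPM and at 166.3 and 137.3 CPM. Gata6 and Sox17 of the first list had 1 to 5 reads a library, and Neurog2 and Olig2 of the second had 0. Such sums do not show which cells held the RNA. Below, levels are in CPM, always in the order R1 and CGR8, and errors of log2 fold changes are standard errors of the fit. Lists of genes are described by counts and medians beside the background shares just given, with no test of the list. The lists were chosen with earlier results of these data known, so their shares and ranks are descriptions. Small counts of members were unstable: 40 of 50 list counts between 1 and 5 moved by over 1.5 times when some library of the fit was left out, against 3 of 11 counts of 6 or more. In bulk RNA, fewer cells that express a gene and less RNA of it per cell cannot be told apart.

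**Figure D2:**
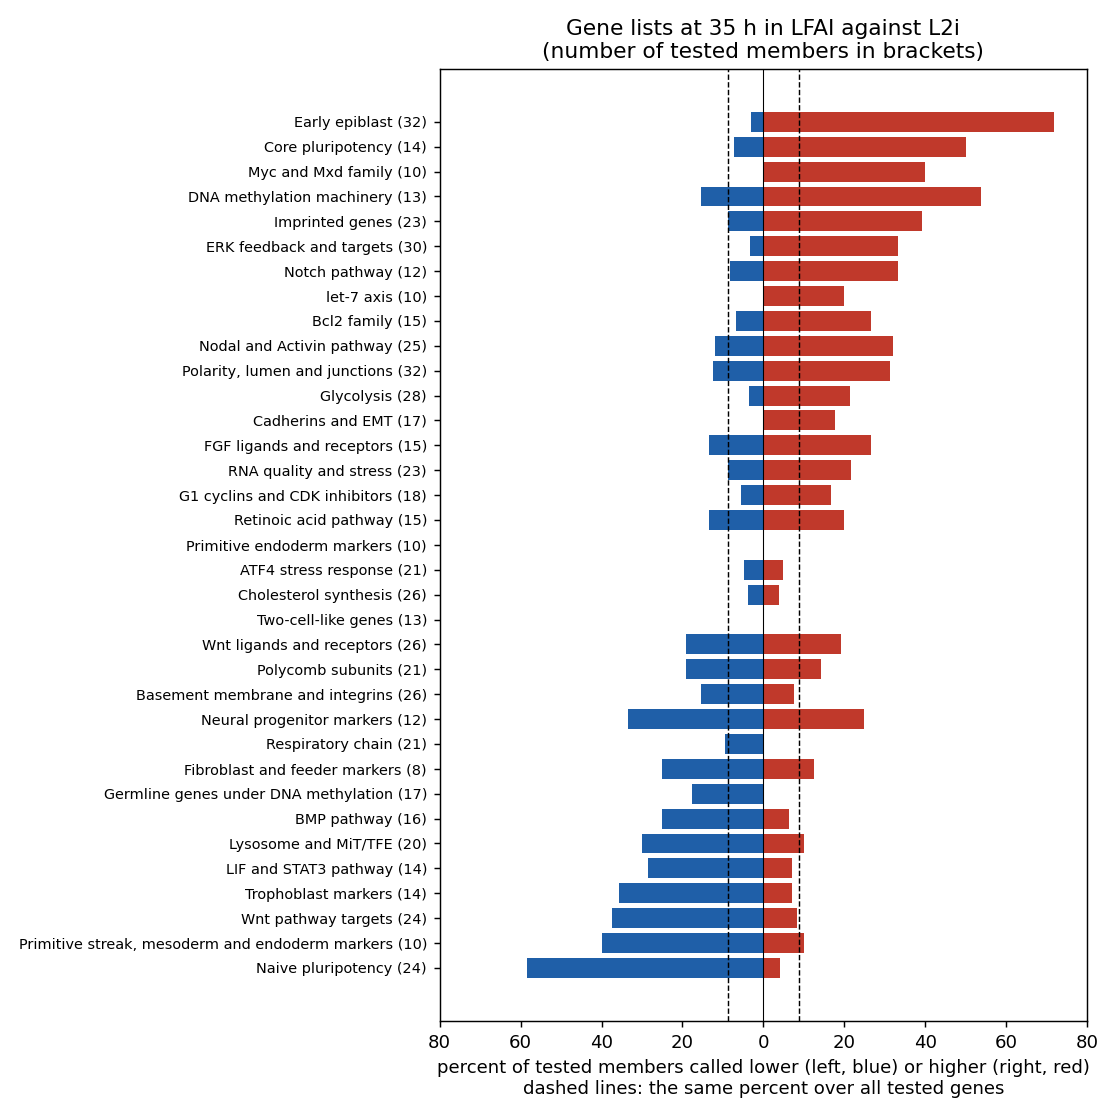
Bars give, for each gene list, the percent of its tested members called higher (right, red) or lower (left, blue) at 35 h; dashed lines mark the same percent over all tested genes, 8.93 and 8.68, and the number in brackets is the count of tested members. The early epiblast list (23 of 32 higher) and the naive pluripotency list (14 of 24 lower) lie farthest from the dashed lines. All lists were chosen with earlier results of these data known.

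The targets of Wnt and beta-catenin signalling included some of the deepest falls of the response. Of 24 tested targets 9 were lower and 2 higher, with a median log2 fold change of -0.79 against 0 over all genes. Sp5, a direct beta-catenin target that encodes a zinc finger factor, was at 28.6 and 44.8 CPM in L2i and 0.0652 and 0 CPM at 35 h. With 1 read in the lower group the pooled ratio of L2i to 35 h was 1083 (95% counting interval 194 to 42793), and the adjusted p was 0.00035. Cdx1, a caudal homeobox gene, was at 43.3 and 66.0 CPM in L2i and 0 and 0.195 CPM at 35 h, a pooled ratio of 539 (95% counting interval 184 to 2616) (adjusted p = 3.2e-05). Both transcripts were plentiful in L2i and close to absent at 35 h in both lines. The related factor Cdx2 was at 6.89 and 5.18 CPM in L2i and had no counts at 35 h, at least 63.4-fold lower over a floor of 3 counts in the summed depth of both libraries (adjusted p = 0.0011).

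Other targets fell as well. Axin2, the scaffold of the complex that degrades beta-catenin, was at 99.3 and 151 CPM in L2i and 22.7 and 25.3 CPM at 35 h (log2 fold change -2.37 ± 0.20, adjusted p = 0.00014). Tnfrsf19, a TNF receptor family member induced by Wnt, was at 72.8 and 87.8 CPM in L2i and 4.24 and 7.73 CPM at 35 h (log2 fold change -3.77 ± 0.24, adjusted p = 3.4e-05). T, which encodes brachyury and marks the primitive streak, was at 2.44 and 8.43 CPM in L2i and 0.13 and 0.195 CPM at 35 h (log2 fold change -4.88 ± 0.77, adjusted p = 0.0026). For these 3 genes the groups did not overlap, which the call itself favours. The 2 targets that rose were Lef1, a nuclear partner of beta-catenin, at 8.09 and 9.03 CPM in L2i and 78.9 and 37.9 CPM at 35 h (log2 fold change 2.78 ± 0.44, adjusted p = 0.0027). The G1 cyclin Ccnd2 was at 0.368 and 0.996 CPM in L2i and 5.22 and 9.87 CPM at 35 h (log2 fold change 3.54 ± 0.61, adjusted p = 0.0043; adjusted p = 0.0507 without the R1 L2i library). Tcf7, another nuclear partner, was at 102 and 123 CPM in L2i and 90.5 and 92.3 CPM at 35 h and was not called (adjusted p = 0.317).

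The TCF and LEF letters CTTTGAT, read on both strands, were in the 250 bases before the start of Sp5 (RefSeq promoter table, GRCm38.p6). Amotl2, a Wnt target that was not called, has them too, and the table has no entry for some targets, Cdx1 among them. The stretch was chosen after the matches were seen, from a gene with among the largest falls of all. It lies at chr2:70474673-70474922, plus strand, and the capitals mark the match, 104 to 98 bases before the start.
Sp5: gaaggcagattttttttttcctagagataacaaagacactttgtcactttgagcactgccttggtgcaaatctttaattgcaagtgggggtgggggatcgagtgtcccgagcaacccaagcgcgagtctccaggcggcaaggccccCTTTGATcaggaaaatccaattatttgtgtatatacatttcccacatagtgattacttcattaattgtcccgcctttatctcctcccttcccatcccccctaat
The same letters were in 2.21% of 11259 promoters of tested genes, in 3.07% of those of genes called lower and in 2.45% of those of genes called higher. A match is a description of the letters, and targets without it can carry such sites elsewhere.

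Receptors and ligands of the Wnt system moved in both directions, with 5 of 26 tested genes higher, 5 lower and a median of 0; without the R1 L2i library 3 were higher, and without the R1 35 h library 3 were lower. Fzd7, a Frizzled receptor of pluripotent cells, was at 18.1 and 19.8 CPM in L2i and 207 and 165 CPM at 35 h (log2 fold change 3.31 ± 0.19, adjusted p = 2.5e-05). Lgr4, a receptor for the Wnt enhancers called R-spondins, was at 59.5 and 49.5 CPM in L2i and 183 and 207 CPM at 35 h (log2 fold change 1.84 ± 0.15, adjusted p = 0.00012). Both were higher at 35 h in each line. Ror2, a receptor for Wnt5a-type ligands, went the other way at 51.2 and 49.3 CPM in L2i and 4.5 and 5.65 CPM at 35 h (log2 fold change -3.30 ± 0.32, adjusted p = 0.00025). Fzd10 was at 60.0 and 81.3 CPM in L2i and 16.2 and 36.6 CPM at 35 h (log2 fold change -1.47 ± 0.28, adjusted p = 0.0066). Among the ligands, Wnt7b was at 6.85 and 5.11 CPM in L2i and 0.0652 and 0.26 CPM at 35 h (log2 fold change -5.14 ± 0.84, adjusted p = 0.0031). Wnt5a had 1 read in L2i and was at 2.09 and 2.14 CPM at 35 h, a pooled ratio of 77.9 (95% counting interval 13.5 to 3122) (adjusted p = 0.0053; 0.0727 without the R1 L2i library).

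The ERK list of feedback inhibitors and targets had 10 higher and 1 lower of 30 tested genes, with a median of 0.74, and without the R1 L2i library 6 were higher. Dusp6, the phosphatase that inactivates ERK in the cytoplasm, was at 4.04 and 5.45 CPM in L2i and 51.7 and 58.1 CPM at 35 h (log2 fold change 3.55 ± 0.23, adjusted p = 3.6e-05). Dusp4, its nuclear counterpart, was at 2.25 and 1.66 CPM in L2i and 16.9 and 7.34 CPM at 35 h (log2 fold change 2.57 ± 0.27, adjusted p = 0.00033). The Sprouty gene Spry1 was at 2.85 and 3.45 CPM in L2i and 16.2 and 14.7 CPM at 35 h (log2 fold change 2.31 ± 0.28, adjusted p = 0.00068). All 3 brakes on the cascade were several times higher in each line. The ETS factor Etv1 was at 4.78 and 5.98 CPM in L2i and 26.6 and 30.3 CPM at 35 h (log2 fold change 2.41 ± 0.25, adjusted p = 0.00032). Its relative Etv5 was at 675 and 608 CPM in L2i and 768 and 780.2 CPM at 35 h and was not called (adjusted p = 0.297). Etv4 was at 26.7 and 25.3 CPM in L2i and 41.0 and 49.2 CPM at 35 h and was not called either (adjusted p = 0.166). The immediate-early gene Egr1 was at 0.368 and 0.73 CPM in L2i and 2.35 and 2.53 CPM at 35 h (log2 fold change 2.20 ± 0.45, adjusted p = 0.01), whereas Fos was at 0.689 and 0.996 CPM in L2i and 0.718 and 1.04 CPM at 35 h (adjusted p = 0.950). Dusp14, another dual-specificity phosphatase, was the member that fell, at 56.1 and 29.9 CPM in L2i and 6.98 and 7.73 CPM at 35 h (log2 fold change -2.45 ± 0.38, adjusted p = 0.0023).

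Of 15 tested FGF ligand and receptor genes 4 were higher, all of them ligands, and 2 were lower, the ligand Fgf3 and the receptor-like Fgfrl1. Without the R1 L2i library 2 were higher, and with any 1 of the 4 libraries left out 1 was lower. Fgf15, a ligand of the epiblast, was at 0.276 and 0.0664 CPM in L2i and 64.6 and 32.1 CPM at 35 h (log2 fold change 7.95 ± 0.69, adjusted p = 0.00014). Fgf5, the classic epiblast ligand, had 2 reads in L2i and was at 14.5 and 4.61 CPM at 35 h, a pooled ratio of 176 (95% counting interval 48.2 to 1456) (adjusted p = 0.00055). Both ligands were higher in R1 than in CGR8 at 35 h. Fgf3 was at 10.6 and 7.24 CPM in L2i and 1.24 and 1.36 CPM at 35 h (log2 fold change -2.76 ± 0.44, adjusted p = 0.0028). Fgf4, the ligand that embryonic stem cells themselves secrete, was at 293 and 259 CPM in L2i and 342 and 386 CPM at 35 h (adjusted p = 0.217). The receptor Fgfr1 was at 235 and 130.4 CPM in L2i and 175 and 134 CPM at 35 h (adjusted p = 0.430). Neither passed the test, and for Fgfr1 the 35 h values lie within the range of the L2i values.

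In the Nodal and Activin pathway 8 of 25 tested genes were higher, 6 of them inhibitors or coreceptors, and 3 were lower (1 with either R1 library left out). The secreted inhibitor Lefty2 was at 61.9 and 10.2 CPM in L2i and 306 and 448 CPM at 35 h (log2 fold change 3.40 ± 0.74, adjusted p = 0.013). Its near-identical neighbour Lefty1 was at 46.4 and 7.37 CPM in L2i and 352 and 361 CPM at 35 h. In L2i the R1 level was well above that of CGR8 for both genes, and reads that fit both copies would not have been assigned to either. Skil, a SMAD corepressor that the pathway induces, was at 48.6 and 41.6 CPM in L2i and 266 and 187 CPM at 35 h (log2 fold change 2.33 ± 0.32, adjusted p = 0.0013). Pmepa1, a membrane adaptor that dampens TGF-beta signals, was at 10.7 and 9.03 CPM in L2i and 22.4 and 30.1 CPM at 35 h (log2 fold change 1.38 ± 0.22, adjusted p = 0.0027). Each of these was higher in both lines. Other known targets fell: Gsc, the goosecoid homeobox gene, was at 7.4 and 6.18 CPM in L2i and 0.13 and 0.0649 CPM at 35 h, a pooled ratio of 70.7 (95% counting interval 23.9 to 345) (adjusted p = 0.0011). Mixl1 was at 1.98 and 0.598 CPM in L2i and 0.0652 and 0.0649 CPM at 35 h, a pooled ratio of 21.7 (95% counting interval 5.71 to 184) (adjusted p = 0.015; 0.0534 to 0.281 without the R1 L2i library or either 35 h library). Nodal itself was at 127 and 106 CPM in L2i and 68.0 and 82.3 CPM at 35 h and was not called (adjusted p = 0.057). The DESeq2 Wald test and limma-voom called it lower (log2 fold change -0.64 in each, adjusted p = 0.0359 and 0.0468).

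BMP genes gave 1 higher and 4 lower of 16 tested, with a median of -0.32, with 2 lower without the R1 L2i library and 0 without the R1 35 h library. Chrd, which encodes the BMP antagonist chordin, was at 2.25 and 1.66 CPM in L2i and 12.1 and 12.9 CPM at 35 h (log2 fold change 2.69 ± 0.33, adjusted p = 0.00075). The ligand gene Bmp7 was at 9.38 and 10.9 CPM in L2i and 1.44 and 2.66 CPM at 35 h (log2 fold change -2.29 ± 0.43, adjusted p = 0.0061; 0.0548 without the R1 35 h library). Id1 and Id3, immediate targets of BMP and SMAD signalling, were not called, at 2.9 and 3.19 CPM in L2i and 4.5 and 6.62 CPM at 35 h and 17.0 and 19.4 CPM in L2i and 18.1 and 25.9 CPM at 35 h in turn (adjusted p = 0.126 and 0.589).

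**Figure D3:**
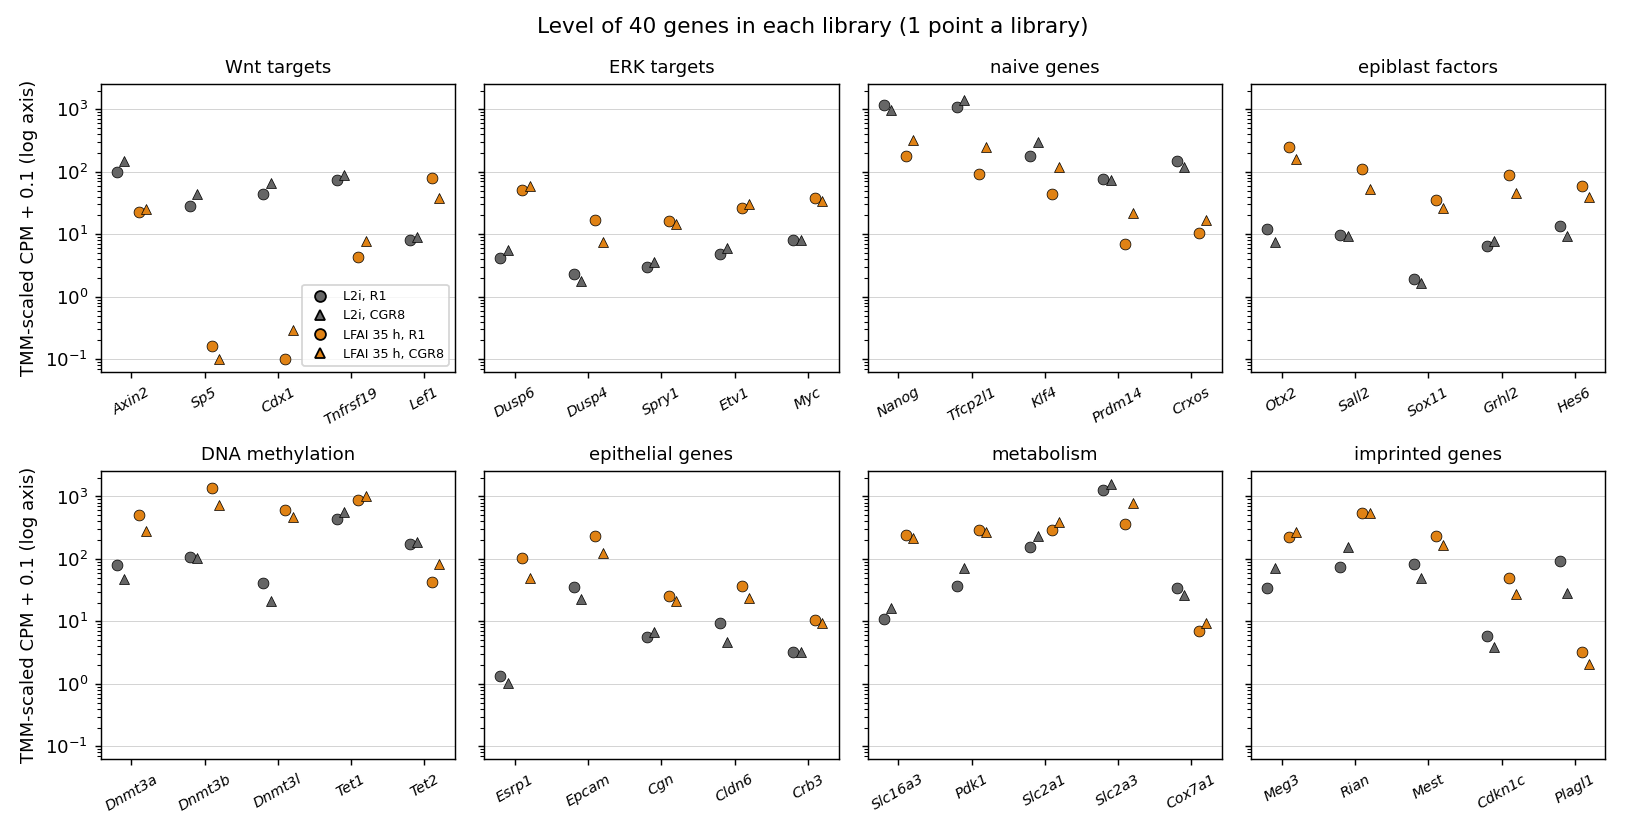
Points are the levels of 40 genes in each library (TMM-scaled CPM plus 0.1, log axis), grey in L2i and orange at 35 h, circles for R1 and triangles for CGR8. Sp5 and Cdx1 are at 28.6 CPM or more in L2i and at 0.195 CPM or less at 35 h, and Dnmt3b goes from 109 and 103 CPM to 1373 and 730 CPM.

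Naive pluripotency genes were the list with the largest share of falls: 14 of 24 were lower and 1 higher, with a median log2 fold change of -0.98, and 7 were lower without the R1 L2i library. Tfcp2l1, a LIF-dependent factor, was at 1095 and 1392 CPM in L2i and 93.3 and 251 CPM at 35 h (log2 fold change -2.92 ± 0.39, adjusted p = 0.0011). Prdm14, which holds back DNA methylation in naive cells, was at 77.6 and 73.9 CPM in L2i and 6.98 and 21.6 CPM at 35 h (log2 fold change -2.62 ± 0.37, adjusted p = 0.0021). Nanog was at 1169 and 971 CPM in L2i and 179.7 and 325 CPM at 35 h (log2 fold change -2.16 ± 0.24, adjusted p = 0.0004). In each of these 3 genes CGR8 kept a higher level than R1 at 35 h. Klf2 was at 362 and 238 CPM in L2i and 90.9 and 117 CPM at 35 h (log2 fold change -1.53 ± 0.22, adjusted p = 0.0015). Nr5a2, an orphan nuclear receptor, was at 143 and 148 CPM in L2i and 53.5 and 88.7 CPM at 35 h (log2 fold change -1.06 ± 0.21, adjusted p = 0.0082). Crxos, a homeobox gene of naive cells, was at 151 and 120.0 CPM in L2i and 10.4 and 16.6 CPM at 35 h (log2 fold change -3.40 ± 0.34, adjusted p = 0.0004).

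Not every naive gene had fallen. Zfp42, also known as Rex1 and widely used as a naive reporter, was at 885 and 696 CPM in L2i and 637 and 684 CPM at 35 h and was not called (adjusted p = 0.264). Nr0b1, which encodes the corepressor Dax1, was higher, at 61.9 and 83.7 CPM in L2i and 108 and 157 CPM at 35 h (log2 fold change 0.85 ± 0.15, adjusted p = 0.0044); without the line term its adjusted p was 0.076. Esrrb, an orphan nuclear receptor that activates naive genes, was at 906 and 909 CPM in L2i and 340.4 and 555 CPM at 35 h (log2 fold change -1.04 ± 0.27, adjusted p = 0.027), and its call was lost with either R1 library or the CGR8 L2i library left out (adjusted p 0.077 to 0.243). At 4 days in LFAI the log2 fold changes against the same L2i libraries were -6.09 for Zfp42, -6.63 for Nr0b1 and -7.13 for Esrrb. These 2 comparisons share their controls, so the values stand side by side only.

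LIF stayed in the medium, and of 14 tested genes of the LIF and STAT3 pathway 4 were lower and 1 higher, among the lower ones the naive factors Klf4 and Tfcp2l1. Without the CGR8 L2i or the R1 35 h library 2 were lower. Stat3 was at 111 and 153 CPM in L2i and 116 and 156 CPM at 35 h (adjusted p = 0.899). The feedback inhibitor Socs3 was at 22.8 and 42.3 CPM in L2i and 35.9 and 73.2 CPM at 35 h (adjusted p = 0.342). Neither was called. Il6st, the gp130 chain through which LIF signals, was at 181 and 227 CPM in L2i and 92.2 and 124 CPM at 35 h (log2 fold change -0.91 ± 0.20, adjusted p = 0.014; 0.116 without the CGR8 L2i library and 0.144 without the R1 35 h library). Socs2, another feedback gene, was at 37.5 and 49.2 CPM in L2i and 96.2 and 104 CPM at 35 h (log2 fold change 1.21 ± 0.16, adjusted p = 0.0011).

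Among the lists, which were chosen with earlier results of these data known, early epiblast genes had the largest share of rises. Of 32 tested genes 23 were higher and 1 lower (Cd24a), with a median log2 fold change of 2.10, and 19 to 24 were higher when any library was left out. The fall of Cd24a was not called without the CGR8 L2i library. Sall2, a zinc finger factor, was at 9.7 and 9.3 CPM in L2i and 109.8 and 53.4 CPM at 35 h (log2 fold change 3.06 ± 0.26, adjusted p = 0.00012). Sox11, of the SoxC group, was at 1.79 and 1.53 CPM in L2i and 35.2 and 25.9 CPM at 35 h (log2 fold change 4.19 ± 0.20, adjusted p = 1.5e-05). Its relative Sox4 was at 2.48 and 5.18 CPM in L2i and 47.4 and 41.9 CPM at 35 h (log2 fold change 3.60 ± 0.27, adjusted p = 8.6e-05). All 3 were higher at 35 h in each line. Hes6, a Hes family factor that counters Hes1, was at 13.2 and 9.16 CPM in L2i and 58.5 and 38.9 CPM at 35 h (log2 fold change 2.11 ± 0.18, adjusted p = 0.00012). Zic2 and Zic5, neighbouring zinc finger genes, were at 39.9 and 45.2 CPM in L2i and 120.0 and 119 CPM at 35 h and 28.3 and 28.6 CPM in L2i and 76.8 and 64.2 CPM at 35 h (adjusted p = 0.0004 and 0.003).

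Of 14 tested core pluripotency genes 7 were higher and 1 lower, with a median of 0.51, and 4 were higher without the R1 35 h library. L1td1, an RNA-binding protein of pluripotent cells, was at 602 and 485 CPM in L2i and 1186 and 1115 CPM at 35 h (log2 fold change 1.09 ± 0.14, adjusted p = 0.0009). Dppa4, a chromatin protein that acts with Dppa2, was at 46.8 and 45.0 CPM in L2i and 136 and 109 CPM at 35 h (log2 fold change 1.41 ± 0.15, adjusted p = 0.00035). Utf1 was at 123 and 48.6 CPM in L2i and 399 and 297 CPM at 35 h (log2 fold change 2.08 ± 0.29, adjusted p = 0.0013). The exception was Tfap2c, a factor shared with the trophoblast and germ line, at 97.7 and 99.9 CPM in L2i and 6.39 and 13.7 CPM at 35 h (log2 fold change -3.32 ± 0.32, adjusted p = 0.00025). Its groups were far apart in both lines.

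POU factors such as Pou5f1 and Pou3f1 bind variants of the octamer ATGCAAAT. These letters, on both strands, were in 2.45% of 1022 promoters of genes called higher, in 1.06% of 1042 promoters of genes called lower and in 1.35% of all 11259. Promoters of genes that were higher and hold the octamer are shown for Pcdh8, a protocadherin, Dll1, a Notch ligand, and Gadd45a, a demethylation and stress factor, with the match in capitals. They were chosen after the matches were seen. Pcdh8 lies at chr14:79771313-79771562, minus strand, Dll1 at chr17:15375824-15376073, minus strand and Gadd45a at chr6:67037408-67037657, minus strand.
Pcdh8: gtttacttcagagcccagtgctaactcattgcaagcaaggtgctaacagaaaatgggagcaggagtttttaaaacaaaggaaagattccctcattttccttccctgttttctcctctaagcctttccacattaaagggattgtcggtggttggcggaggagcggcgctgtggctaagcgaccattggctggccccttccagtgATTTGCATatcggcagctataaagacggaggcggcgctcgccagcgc
Dll1: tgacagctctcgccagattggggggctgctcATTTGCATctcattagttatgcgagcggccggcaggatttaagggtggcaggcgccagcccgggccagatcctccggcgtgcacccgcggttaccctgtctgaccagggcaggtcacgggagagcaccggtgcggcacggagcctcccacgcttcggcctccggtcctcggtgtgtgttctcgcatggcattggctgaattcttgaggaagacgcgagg
Gadd45a: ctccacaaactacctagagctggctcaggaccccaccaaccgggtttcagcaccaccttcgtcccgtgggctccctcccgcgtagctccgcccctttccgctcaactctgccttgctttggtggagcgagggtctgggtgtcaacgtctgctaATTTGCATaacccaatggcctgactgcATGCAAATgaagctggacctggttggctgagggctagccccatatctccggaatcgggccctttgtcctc
Gadd45a holds the octamer in each orientation. Gadd45a was at 11.4 and 12.0 CPM in L2i and 33.3 and 45.1 CPM at 35 h (log2 fold change 1.76 ± 0.28, adjusted p = 0.0025). Pcdh8 had no counts in L2i and was at 1.63 and 2.66 CPM at 35 h, at least 26.4-fold higher. Cdx2, which was lower, also has the octamer in this window, as does Zfp42, which was not called.

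Shares of the other motifs, again on both strands, are given for all promoters, for those of genes called higher and for those of genes called lower. CCGGAAGT, an ETS site, was in 5.69%, 2.74% and 2.4%. TGACTCA (AP-1) was in 2.91%, 2.45% and 3.45%, AATCCACA (FOXH1) in 0.44%, 0.49% and 0.29%, and TTCCNGGAA (STAT) in 0.95%, 0.98% and 0.86%. TGATGCAA (ATF4) was in 0.51%, 0.1% and 0.19%, CACGTG (E-box) in 8.38%, 6.75% and 8.73%, and TGACGTCA (CRE) in 2.72%, 1.66% and 1.63%.

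Of 13 tested genes of the DNA methylation machinery 7 were higher and 2 lower, with a median of 0.87. Dnmt3l, the catalytically inactive partner of the de novo enzymes, was at 40.8 and 21.3 CPM in L2i and 597 and 469 CPM at 35 h (log2 fold change 4.13 ± 0.22, adjusted p = 2.5e-05). Dnmt3b was at 109 and 103 CPM in L2i and 1373 and 729.9 CPM at 35 h (log2 fold change 3.29 ± 0.26, adjusted p = 0.00011). Dnmt3a was at 80.3 and 47.9 CPM in L2i and 513 and 285 CPM at 35 h (log2 fold change 2.63 ± 0.37, adjusted p = 0.0016). The de novo genes were thus higher in each line, with larger levels in R1. The maintenance enzyme Dnmt1 was at 546 and 598 CPM in L2i and 633 and 653 CPM at 35 h and was not called (adjusted p = 0.376), nor was its partner Uhrf1 (adjusted p = 0.836). Among the demethylating TET enzymes, Tet2 was at 174 and 188 CPM in L2i and 43.3 and 83.5 CPM at 35 h (log2 fold change -1.57 ± 0.22, adjusted p = 0.0016). Tet3 was at 9.1 and 7.84 CPM in L2i and 22.1 and 18.1 CPM at 35 h (log2 fold change 1.24 ± 0.17, adjusted p = 0.0015). Tet1 was at 442 and 562 CPM in L2i and 887 and 1028 CPM at 35 h (log2 fold change 0.93 ± 0.19, adjusted p = 0.01; 0.118 without the R1 L2i library and 0.0651 without the CGR8 35 h library). Of the TET genes, Tet2 fell while Tet1 and Tet3 rose.

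Germline genes are a class that DNA methylation keeps silent in somatic cells. Of 17 tested, 3 were lower and 0 higher, with a median log2 fold change of -0.35. In the daily R1 series their median against day 0 was -0.19 on day 1, 0.76 on day 2 and 1.61 on day 4. A link to DNA methylation was not tested. Dazl, an RNA-binding protein of germ cells, was at 158 and 131 CPM in L2i and 19.1 and 24.7 CPM at 35 h (log2 fold change -2.78 ± 0.35, adjusted p = 0.00081). Rhox6, of a homeobox cluster whose members resemble each other closely, was at 5.79 and 11.0 CPM in L2i and 1.04 and 1.88 CPM at 35 h (log2 fold change -2.49 ± 0.43, adjusted p = 0.004). Polycomb subunits gave 3 higher and 4 lower of 21, with 0 lower without the R1 L2i library. Phc1 was at 288 and 296 CPM in L2i and 743 and 647 CPM at 35 h (log2 fold change 1.25 ± 0.13, adjusted p = 0.00031). Kdm2b, which brings the complex to unmethylated CpG islands, was at 154 and 129 CPM in L2i and 294 and 347 CPM at 35 h (log2 fold change 1.18 ± 0.16, adjusted p = 0.0011). Cbx7, the main Cbx subunit of stem cells, was at 167 and 180.0 CPM in L2i and 271 and 254 CPM at 35 h (log2 fold change 0.59 ± 0.13, adjusted p = 0.012; 0.148 without the R1 L2i library and 0.108 without the R1 35 h library). The catalytic gene Ezh2 was at 233 and 213 CPM in L2i and 239 and 212 CPM at 35 h and was not called (adjusted p = 0.965).

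Imprinted genes, expressed from a single parental allele, had 9 higher and 2 lower of 23 tested, and 6 higher without the R1 L2i library. The 3 noncoding RNAs of the Dlk1 to Dio3 domain rose together. Meg3 was at 33.6 and 70.5 CPM in L2i and 225 and 274 CPM at 35 h (log2 fold change 2.30 ± 0.29, adjusted p = 0.00079). Rian was at 73.6 and 154 CPM in L2i and 539 and 552 CPM at 35 h (log2 fold change 2.31 ± 0.26, adjusted p = 0.00045). Mirg was at 5.47 and 9.36 CPM in L2i and 40.6 and 48.6 CPM at 35 h (log2 fold change 2.61 ± 0.23, adjusted p = 0.00016). They lie next to each other on the same strand and are not independent. Mest was at 82.5 and 48.7 CPM in L2i and 231 and 168 CPM at 35 h (log2 fold change 1.63 ± 0.14, adjusted p = 0.00012). Cdkn1c, a CDK inhibitor, was at 5.7 and 3.85 CPM in L2i and 49.1 and 27.5 CPM at 35 h (log2 fold change 2.98 ± 0.29, adjusted p = 0.00024). Plagl1, a zinc finger factor, was lower, at 93.5 and 28.6 CPM in L2i and 3.2 and 2.01 CPM at 35 h (log2 fold change -4.39 ± 0.66, adjusted p = 0.002).

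In the list of polarity, lumen and junction genes 10 of 32 tested were higher and 4 lower, with a median of 0.40, and 1 was lower with either R1 library left out. Esrp1, the epithelial splicing regulator, was at 1.24 and 0.93 CPM in L2i and 104 and 49.3 CPM at 35 h (log2 fold change 6.09 ± 0.36, adjusted p = 3.1e-05). Grhl2, a factor that holds epithelial identity, was at 6.34 and 7.64 CPM in L2i and 88.6 and 45.7 CPM at 35 h (log2 fold change 3.26 ± 0.41, adjusted p = 0.00082). Epcam, an adhesion molecule, was at 36.1 and 23.0 CPM in L2i and 229 and 126 CPM at 35 h (log2 fold change 2.57 ± 0.28, adjusted p = 0.00038). All 3 were higher in R1 than in CGR8 at 35 h and well above L2i in both. Among apical genes, Crb3, a Crumbs polarity protein, was at 3.13 and 3.19 CPM in L2i and 10.5 and 9.22 CPM at 35 h (log2 fold change 1.64 ± 0.25, adjusted p = 0.0022). Cgn, which encodes cingulin of the tight junction, was at 5.56 and 6.57 CPM in L2i and 25.7 and 21.5 CPM at 35 h (log2 fold change 1.95 ± 0.28, adjusted p = 0.0016). The claudin gene Cldn6 was at 9.24 and 4.58 CPM in L2i and 37.2 and 23.2 CPM at 35 h (log2 fold change 2.11 ± 0.37, adjusted p = 0.0043). Cldn2 had no counts in L2i and was at 2.8 and 1.56 CPM at 35 h, at least 26.8-fold higher.

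Other genes of the same structures were not called or fell. Pard3, a core polarity scaffold, was at 128 and 93.2 CPM in L2i and 121 and 89.5 CPM at 35 h (adjusted p = 0.786). The tight junction gene Ocln was at 6.62 and 5.78 CPM in L2i and 6.65 and 4.55 CPM at 35 h (adjusted p = 0.873). Llgl2, a basolateral polarity gene, was lower, at 239 and 197 CPM in L2i and 90.1 and 102 CPM at 35 h (log2 fold change -1.17 ± 0.16, adjusted p = 0.0013). The cadherin list had 3 higher of 17 tested. Its E-cadherin gene Cdh1 was at 926 and 871 CPM in L2i and 882 and 638 CPM at 35 h (adjusted p = 0.339). Its N-cadherin gene Cdh2 was at 7.58 and 5.45 CPM in L2i and 5.48 and 4.03 CPM at 35 h (adjusted p = 0.259). Cdh3, which encodes P-cadherin, was at 55.3 and 34.4 CPM in L2i and 189 and 140.2 CPM at 35 h (log2 fold change 1.89 ± 0.19, adjusted p = 0.0003). Of 26 basement membrane and integrin genes 2 were higher and 4 lower (1 to 7 lower with a library left out). Col18a1 was at 217 and 173 CPM in L2i and 603 and 475 CPM at 35 h (log2 fold change 1.47 ± 0.14, adjusted p = 0.0002). Itga6, the laminin receptor chain, was at 113 and 101 CPM in L2i and 219 and 243 CPM at 35 h (log2 fold change 1.11 ± 0.13, adjusted p = 0.00061). Nid1, the linker nidogen, was at 552 and 518 CPM in L2i and 95.4 and 195 CPM at 35 h (log2 fold change -1.89 ± 0.37, adjusted p = 0.008). The coat was the same in all 4 libraries.

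Of 28 glycolysis genes 6 were higher and 1 lower, with a median of 0.20. Slc16a3, the lactate exporter MCT4, was at 10.7 and 16.2 CPM in L2i and 238 and 215 CPM at 35 h (log2 fold change 4.16 ± 0.43, adjusted p = 0.00033). Pdk1, a kinase that turns off pyruvate dehydrogenase, was at 36.8 and 71.4 CPM in L2i and 292 and 269 CPM at 35 h (log2 fold change 2.51 ± 0.36, adjusted p = 0.0016). The glucose transporter gene Slc2a3 was lower, at 1251 and 1590.0 CPM in L2i and 367 and 785 CPM at 35 h (log2 fold change -1.37 ± 0.20, adjusted p = 0.0016). Slc2a1 was higher at 156 and 236 CPM in L2i and 288 and 387 CPM at 35 h (log2 fold change 0.80 ± 0.13, adjusted p = 0.0026; 0.124 without the line term). The lactate dehydrogenase gene Ldha was at 631 and 724 CPM in L2i and 845 and 843 CPM at 35 h and was not called (adjusted p = 0.610), nor was Hk2 (adjusted p = 0.987). Of 21 nuclear genes of the respiratory chain 2 were lower, among them Cox7a1 at 34.7 and 26.1 CPM in L2i and 6.91 and 9.22 CPM at 35 h (log2 fold change -1.93 ± 0.30, adjusted p = 0.0022); 16 of the 21 were lower in both lines, with a median of -0.14. The share of all tested genes that were lower in both lines was not counted. In the RNA quality and stress list 5 of 23 tested genes were higher and 2 lower. Without the line term 2 were higher and 2 lower. Slc2a1 and Pdk1 are counted both in its hypoxia part and in the glycolysis list. Of its 8 tested hypoxia genes 3 were higher, with a median of 1.52 beside 0.20 for glycolysis. The sum of these hypoxia genes went from 255.2 and 359.0 CPM to 671.1 and 810.1 CPM. Their part in the glycolysis result was not tested. Of 26 cholesterol genes 1 was higher and 1 lower (2 and 1 without the line term), beside 8.93% and 8.68% of all genes. In the daily R1 series 24 of the 26 were above day 0 on day 1 and 24 on day 2 (medians 0.46 and 0.28). Over all tested genes these shares were 52.1% and 49.2%.

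Asns, asparagine synthetase, was at 1093 and 900.2 CPM in L2i and 533 and 388 CPM at 35 h (log2 fold change -1.12 ± 0.18, adjusted p = 0.0028). Of the 21 tested genes of the ATF4 stress response, to which it belongs, 17 were higher in both lines, with a median of 0.37. The same share over all tested genes was not counted. Among the 21 genes Trib3 was called higher (adjusted p = 0.025, and 0.0554 without the line term). The number called higher was 0 to 6 with a library left out and 14 when the fit held only these 4 libraries with the line as a block. Slc38a2, a glutamine transporter, was at 246 and 238 CPM in L2i and 927 and 763 CPM at 35 h (log2 fold change 1.80 ± 0.14, adjusted p = 0.0001). Of 20 lysosome genes 6 were lower and 2 higher. Ctsb, the protease cathepsin B, was at 202 and 244 CPM in L2i and 84.4 and 107 CPM at 35 h (log2 fold change -1.22 ± 0.13, adjusted p = 0.0004). Npc2, which carries cholesterol out of the lysosome, was at 354 and 348 CPM in L2i and 148 and 173 CPM at 35 h (log2 fold change -1.14 ± 0.13, adjusted p = 0.00057). Tfe3, the factor that drives lysosome genes and holds naive cells back from exit, was at 118 and 132 CPM in L2i and 275 and 220.1 CPM at 35 h (log2 fold change 0.98 ± 0.15, adjusted p = 0.0023). Its RNA rose while the called lysosomal genes fell.

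Of 15 tested Bcl2 family genes 4 rose, all of the BH3-only class that triggers apoptosis, and 1 fell. Bmf was at 7.4 and 10.0 CPM in L2i and 69.9 and 73.2 CPM at 35 h (log2 fold change 3.06 ± 0.27, adjusted p = 0.00014). Bcl2l11, which encodes Bim, was at 15.6 and 14.5 CPM in L2i and 39.7 and 34.6 CPM at 35 h (log2 fold change 1.30 ± 0.17, adjusted p = 0.00095). Pmaip1, which encodes Noxa, was at 3.72 and 2.46 CPM in L2i and 18.5 and 14.7 CPM at 35 h (log2 fold change 2.40 ± 0.42, adjusted p = 0.0047). The protective genes Mcl1 and Bcl2l1 were not called (adjusted p = 0.361 and 0.560). The cell cycle inhibitor Cdkn1a, which encodes p21, was lower, at 248 and 236 CPM in L2i and 89.6 and 95.3 CPM at 35 h (log2 fold change -1.39 ± 0.19, adjusted p = 0.0012). It is a p53 target, as is Bbc3, which rose (log2 fold change 1.04 ± 0.22, adjusted p = 0.011; 0.11 without the R1 L2i library and 0.129 without the R1 35 h library).

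Myc, a growth factor response gene, was at 8.09 and 7.97 CPM in L2i and 38.3 and 34.1 CPM at 35 h (log2 fold change 2.17 ± 0.23, adjusted p = 0.00034). Its relative Mycn was at 133 and 140.2 CPM in L2i and 334 and 246 CPM at 35 h (log2 fold change 1.08 ± 0.15, adjusted p = 0.0013). Lin28a, which blocks maturation of let-7 microRNAs, was at 98.9 and 131 CPM in L2i and 542 and 445 CPM at 35 h (log2 fold change 2.10 ± 0.21, adjusted p = 0.00028). Of 12 Notch genes 4 were higher and 1 lower. Dll1 was at 0.322 and 0.266 CPM in L2i and 30.0 and 13.3 CPM at 35 h (log2 fold change 6.13 ± 0.53, adjusted p = 0.00014). Notch3 was at 56.0 and 67.3 CPM in L2i and 123 and 148 CPM at 35 h (log2 fold change 1.14 ± 0.13, adjusted p = 0.00046). The target gene Hes1 was lower at 47.5 and 52.0 CPM in L2i and 10.4 and 21.4 CPM at 35 h (log2 fold change -1.73 ± 0.23, adjusted p = 0.0012). Of 15 retinoic acid genes 3 were higher and 2 lower. Crabp2, which carries retinoic acid to the nucleus, was at 2.67 and 1.93 CPM in L2i and 37.7 and 37.1 CPM at 35 h (log2 fold change 4.00 ± 0.22, adjusted p = 2.5e-05). The receptor Rarg was at 100.2 and 93.2 CPM in L2i and 242 and 201 CPM at 35 h (log2 fold change 1.19 ± 0.13, adjusted p = 0.00048). The germ cell gene Stra8, a retinoic acid target, was at 15.4 and 35.7 CPM in L2i and 0.261 and 0.649 CPM at 35 h (log2 fold change -5.92 ± 0.60, adjusted p = 0.00046).

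Markers of later lineages were mostly lower or not called. Of 10 tested streak, mesoderm and endoderm markers 4 were lower (T, Mixl1, Gsc and Wnt3) and 1 higher (Fgf8), with 2 lower and 0 higher when either R1 library was left out, and their summed level was 21.7 and 22.6 CPM in L2i and 8.3 and 8.4 CPM at 35 h. Eomes was at 3.54 and 3.25 CPM in L2i and 5.68 and 4.29 CPM at 35 h (adjusted p = 0.317). Of 14 trophoblast markers 5 were lower, Cdx2, Tfap2a, Tfap2c, Gata2 and Gata3, and 1 was higher, the keratin gene Krt18 (adjusted p = 0.061 without the line term), with 3 lower without the R1 35 h library. Their sum went from 184.2 and 174.6 CPM to 59.4 and 69.6 CPM. Of 10 primitive endoderm markers 0 were called by edgeR (1 higher and 2 lower at an unadjusted p under 0.05, 1 higher by DESeq2 and 0 by limma), with 3 lower without the CGR8 35 h library and 1 lower with either LIM library left out. Gata6 and Sox17 were too low to be tested. Neural markers gave 3 higher and 4 lower of 12; with either R1 library left out 0 were higher and 1 was lower.

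Ranked by size alone, the largest rises among genes with at least 5 CPM in the higher group included genes outside these lists. Enpp2, which encodes autotaxin, the enzyme that makes lysophosphatidic acid, had no counts in L2i and was at 17.7 and 5.39 CPM at 35 h, at least 142-fold higher (adjusted p = 0.0029). Bcl11a, a zinc finger repressor, had 1 read in L2i and was at 30.9 and 21.9 CPM, a pooled ratio of 972 (95% counting interval 174 to 38423) (adjusted p = 3.2e-05). Myrf, a membrane-bound transcription factor known from myelinating cells, was at 0.919 and 1.46 CPM in L2i and 297 and 199.5 CPM at 35 h (log2 fold change 7.74 ± 0.27, adjusted p = 3.4e-06), the smallest p of all genes. Enpp2 and Bcl11a were silent or nearly so in L2i in both lines. Vrtn, a gene linked to vertebra number, was at 0.735 and 1.33 CPM in L2i and 73.4 and 17.3 CPM at 35 h (log2 fold change 5.48 ± 0.78, adjusted p = 0.0016). Aire, the autoimmune regulator of the thymus, was at 0.643 and 1.66 CPM in L2i and 34.2 and 51.1 CPM at 35 h (log2 fold change 5.43 ± 0.53, adjusted p = 0.00025).

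Genes with large falls or with the smallest p among falls included channels and metabolic enzymes. Aqp3, a water and glycerol channel, was at 231 and 166 CPM in L2i and 0.522 and 1.82 CPM at 35 h (log2 fold change -7.36 ± 0.42, adjusted p = 2.5e-05). Cnga4, a cyclic nucleotide gated channel subunit, was at 14.2 and 11.8 CPM in L2i and had no counts at 35 h, at least 135-fold lower (adjusted p = 0.00069). Dmgdh, a mitochondrial enzyme of choline breakdown, was at 90.5 and 150.1 CPM in L2i and 0.783 and 3.18 CPM at 35 h (log2 fold change -6.01 ± 0.35, adjusted p = 2.5e-05). Bhmt, which uses the betaine made in the same route, was at 13.7 and 40.2 CPM in L2i and 0 and 0.39 CPM at 35 h (log2 fold change -7.08 ± 0.63, adjusted p = 0.00028). Both enzymes fell to a few CPM or less. Trpm1, a cation channel, was at 78.5 and 139 CPM in L2i and 2.48 and 5.52 CPM at 35 h (log2 fold change -4.81 ± 0.24, adjusted p = 2.5e-05). Nkx1-2, a homeobox gene, was at 50.3 and 71.5 CPM in L2i and 0.652 and 1.1 CPM at 35 h (log2 fold change -6.10 ± 0.34, adjusted p = 2.5e-05).

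Ranked by the difference in CPM, abundant genes came first. Nedd4, a ubiquitin ligase, was at 1696 and 1918 CPM in L2i and 2907 and 2724 CPM at 35 h (log2 fold change 0.64 ± 0.14, adjusted p = 0.014; 0.0509 to 0.172 without the R1 L2i library or either 35 h library). Trh, the thyrotropin-releasing hormone gene, was at 79.2 and 100.5 CPM in L2i and 516 and 794 CPM at 35 h (log2 fold change 2.84 ± 0.20, adjusted p = 5.2e-05). On the other side, Ckb, the brain-type creatine kinase, was at 1137 and 664 CPM in L2i and 106 and 178 CPM at 35 h (log2 fold change -2.65 ± 0.33, adjusted p = 0.00081). Ak4, a mitochondrial adenylate kinase, was at 767 and 709 CPM in L2i and 48.9 and 123 CPM at 35 h (log2 fold change -3.25 ± 0.30, adjusted p = 0.00017). Kit, the receptor of stem cell factor, was at 553 and 696 CPM in L2i and 33.1 and 88.3 CPM at 35 h (log2 fold change -3.49 ± 0.35, adjusted p = 0.0003). Bcat1, which breaks down branched-chain amino acids, was at 1078 and 1122 CPM in L2i and 426 and 438 CPM at 35 h (log2 fold change -1.35 ± 0.12, adjusted p = 0.00016). Each of these was lower in both 35 h libraries than in either L2i library, which the choice by call and difference favours.

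Genes with the smallest p included several of the cell surface and cytoskeleton. Enpp3, a surface nucleotide hydrolase, was at 6.94 and 5.05 CPM in L2i and 141 and 104 CPM at 35 h (log2 fold change 4.35 ± 0.17, adjusted p = 5.3e-06). Crmp1, a microtubule regulator of neurons, was at 11.5 and 5.84 CPM in L2i and 214 and 148 CPM at 35 h (log2 fold change 4.40 ± 0.20, adjusted p = 1.4e-05). Efnb2, an ephrin ligand, was at 2.02 and 2.32 CPM in L2i and 44.0 and 34.9 CPM at 35 h (log2 fold change 4.19 ± 0.21, adjusted p = 1.6e-05). Adam23, a membrane protein that binds integrins, was at 35.9 and 41.5 CPM in L2i and 162 and 206 CPM at 35 h (log2 fold change 2.24 ± 0.13, adjusted p = 2.5e-05). Dpp4, a surface peptidase, was lower at 85.4 and 60.5 CPM in L2i and 6.33 and 5.78 CPM at 35 h (log2 fold change -3.58 ± 0.24, adjusted p = 4.2e-05). These 5 genes were picked by small p, which favours groups that do not overlap.

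The daily R1 series gives a view of timing from separate cells. It had 1 library a day, plates coated with gelatin and fetal calf serum, and another sequencing protocol, so its values are descriptions with no test. Of the 1387 genes higher at 35 h, 74.3% were above day 0 on day 1 (median log2 difference 0.26) and 95.2% on day 2 (median 1.08). Of the 1348 lower genes, 62.8% were below day 0 on day 1 (median -0.15) and 96.2% on day 2 (median -1.05). Over all tested genes 52.1% were above day 0 on day 1 and 49.2% on day 2. Both medians were closer to 0 on day 1 than on day 2.

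The Wnt target list had a median of -0.59 on day 1 and -0.64 on day 2, with 8 of 24 members above day 0 on day 1. Some targets that fell by 35 h were already far below day 0. On day 1 the log2 difference from day 0 was -7.31 for Sp5, -7.91 for Cdx1, -5.85 for T and -3.12 for Axin2, and on day 2 it was -6.27, -7.30, -6.44 and -2.04. Several naive genes were later: Nanog was at 0.32 on day 1 and -2.28 on day 2, Klf4 at -0.41 and -2.24, and Prdm14 at -0.03 and -2.72. Tfcp2l1 was lower on day 1 already, at -1.23, and at -3.59 on day 2. The naive list had a median of 0.09 on day 1, -1.31 on day 2 and -3.43 on day 4. Among rising genes Otx2 was early, at 2.67 on day 1 and 4.26 on day 2. Dnmt3b was at -0.42 and 2.99, and Esrp1 at -0.21 and 6.04. Lef1 was below day 0 on day 1 (-2.13) and above it on day 2 (2.74), as was Myc (-2.33 and 3.40). The early epiblast list went from a median of 0.18 on day 1 to 2.05 on day 2.

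**Figure D4:**
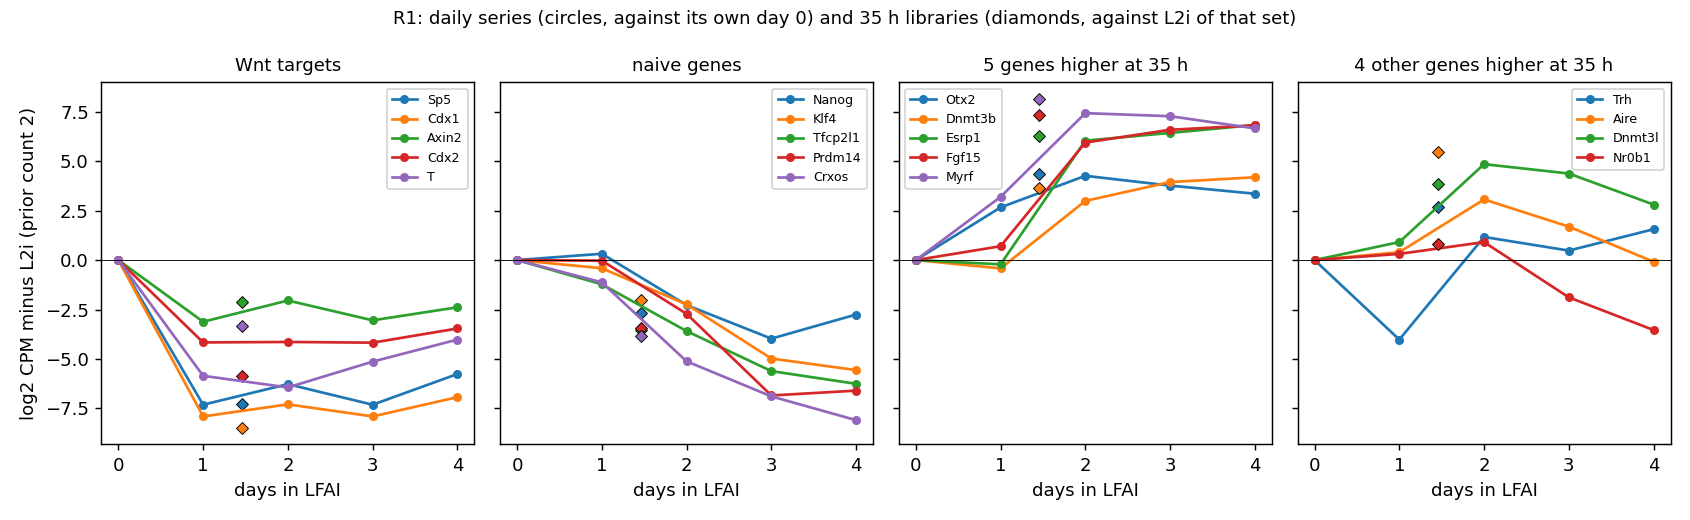
Lines with circles follow 19 genes over days 0 to 4 of the R1 series in LFAI (log2 CPM minus day 0, prior count 2, 1 library a day), and diamonds at 35 h give the change in the R1 libraries of the set with both lines against their own L2i. The 5 Wnt targets are far below day 0 on day 1, the 5 naive genes are lower on day 2 than on day 1, and Nr0b1 and Dnmt3l reach their highest point of the series on day 2.

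Some of the genes higher at 35 h were not so at 4 days in the set with both lines. Dnmt3l had a log2 fold change of -1.51 at 4 days in LFAI against L2i (adjusted p = 0.00046), where it was 4.13 at 35 h. Aire was at -2.57 (adjusted p = 0.04) beside 5.43 at 35 h and Trh at -0.30 (adjusted p = 0.215) beside 2.84. These comparisons use the same L2i libraries, and the difference between the times was not tested. In the daily R1 series, with its own day 0, Aire was at 3.07 on day 2 and -0.08 on day 4, Dnmt3l at 4.85 and 2.81, and Trh at 1.17 and 1.56. Aire and Dnmt3l were thus lower on day 4 than on day 2 there, and Trh was not. On day 4 Dnmt3l (2.81) and Trh (1.56) were still above day 0. The set with both lines differed from this at 4 days, with -1.51 and -0.30.

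LIM, in which the MEK inhibitor stays and IWP2 replaces CHIR99021, gives values beside these against the same L2i libraries, after 4 (R1) and 6 (CGR8) passages. The log2 fold change in LIM was -2.88 for Axin2 (-2.37 at 35 h in LFAI) and 2.65 for Lef1 (2.78). It was 4.45 for Otx2 (4.38), 3.07 for Dnmt3b (3.29), 5.79 for Esrp1 (6.09), 4.23 for Slc16a3 (4.16) and 7.36 for Myrf (7.74). For Dusp6 it was 1.57 (3.55) and for Aqp3 -3.72 (-7.36). Medium and time both differ between these groups, and the difference was not tested.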

How the data were processed

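The deposited values were counts of reads per Ensembl gene, which the submitters' processing notes place after alignment with HISAT2 2.0.4 to GRCm38 and counting with HTSeq 0.6.1 (DESeq2 1.10.1 is also named). Libraries came from a stranded mRNA kit per the labels' protocols. The strand setting and annotation release of the counting are not given in the sources used here, so overlapping and antisense genes may be mixed. Between 49.8% and 51.9% of reads in the 4 libraries were assigned to no gene, 41.4% to 43.3% of all as multiply aligned, so near-identical genes are undercounted. The 5 summary entries were left out. Of 47729 identifiers, 47224 were matched to GENCODE M21.

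A single model in edgeR 4.0.16 (R 4.3.3) covered all 8 libraries that are not part of the daily series (filterByExpr, TMM, group means with the line as a block, 3 residual degrees of freedom, two-sided tests). Replicate 1 is R1 and 2 is CGR8 in every group, so the numbers pair libraries by cell line; residuals of a line correlated at 0.041 to 0.395 between groups. The common coefficient of variation was 0.1761 with the block and 0.2251 without. The design text calls the lines biological replicates. Log2 changes per line and in the daily series use log2 CPM with a prior count of 2. Folds with 0 counts in the lower group use a floor of 3 counts, and ratios on 1 to 3 counts carry 95% counting intervals; both cover counting error only. The fit was tested on simulated counts with 200 changed genes. The alternatives were other scaling, filters, blocks and tools (DESeq2 1.42.0, limma 3.58.1), a log2 threshold of 1, each library left out, and a longer promoter window.

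Promoter letters are from RefSeq (GRCm38.p6, 250 bases before the start, first entry per symbol), matched for 11259 of 15525 tested genes. The libraries, lists and motifs were chosen with earlier results of these data known. Genes were named by rule: the 15 largest changes each way at 5 CPM or more among genes that moved the same way in both lines, the 10 largest in CPM and 10 smallest p each way, and up to 6 called members each way and 4 not called of each list, leaving out predicted genes, plus list members whose lines moved oppositely and a fixed set of well-known markers. The rule gave 361 genes, and values of only a part of them are given here. Spry4 and Podxl of the fixed set are among those left out. Genes named outside that rule were chosen after their values were seen.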

Additional observations from a re-analysis of the deposited data

Results flagged for a closer look

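In 11 genes of the lists the lines moved in opposite directions by over 0.5 on the log2 scale in each. Each value rests on 1 library per line and medium, and the same share over all tested genes was not counted. Of the 12790 genes not called, 9100 moved the same way in both lines and the rest did not. None of these differences between lines was tested. Bcl2, which protects from apoptosis, changed by 1.07 in R1 and -2.4 in CGR8. Fst, the Activin antagonist follistatin, changed by 1.07 in R1 and -1.04 in CGR8, and the imprinted growth factor gene Igf2 by -2.02 and 1.02. Among cell surface and junction genes, Mal2 changed by 1.38 in R1 and -1.06 in CGR8, Marveld3 by 0.64 and -0.75, Cd44 by 0.59 and -0.89, and the keratin gene Krt19 by -1.08 and 0.66. The cyclin gene Ccne2 changed by 0.52 in R1 and -0.56 in CGR8, and the mesoderm factor gene Mesp2 by -1.08 and 0.98. Of the 2-cell-like genes, Arg2 changed by -1.28 in R1 and 1.13 in CGR8, and Tcstv1 by -1.69 and 0.83.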

How the results depend on the processing

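The number of genes higher and lower (1387 and 1348) ranged from 600 to 1505 and from 487 to 1463 when each of the 8 libraries of the fit was left out. The libraries without which a count moved by over 1.5 times were R1 in L2i, R1 at 35 h and, for lower genes, CGR8 in L2i; with 1 library of a group left, it is assumed to vary like the other groups. With no replicate block, that is without the line term, 1141 were higher and 1111 lower, of which 1135 and 1109 were called with it; 25 named genes lost their call. A fit of the 4 libraries alone gave 2039 and 2169 with the block and 878 and 930 without it. Against a log2 threshold of 1, 369 were higher and 336 lower. DESeq2 called 1577 and 1458 and limma-voom 1438 and 1495. Of 361 named genes 216 were called, 107 kept the call under every alternative run, and 0 reversed. Of the 145 named genes not called, 42 gained a call with the 4 libraries and the block, 12 with DESeq2 and 8 with limma-voom. All alternatives drew on the same libraries, so the lack of reversals is a weak check. In the window extended past the start, the ETS letters were in 4.03% of promoters of lower genes (7.9% of all). The ATF4 letters were in 0.29% of those of higher genes (0.59% of all). A longer window can only add matches. Depth limits genes under about 1 CPM most.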

Other observations

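Genes of the 2-cell-like state, a rare and transient state of embryonic stem cells, differed in level between the lines in both media. Zscan4d was at 1.56 and 17.2 CPM in L2i and 2.94 and 30.7 CPM at 35 h (adjusted p = 0.262 for 35 h against L2i), Zscan4f at 2.16 and 17.1 CPM in L2i and 2.94 and 26.4 CPM at 35 h and Usp17lc at 1.42 and 11.4 CPM in L2i and 1.7 and 16.8 CPM at 35 h. In 12 of 13 tested genes of that list CGR8 was above R1 in both media, Eif1a being the exception. The same share over all tested genes was not counted, and each line had 1 library per medium. No test of the lines was made, these families hold near-identical copies, and multiply aligned reads were not counted.

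By gene class, 41 of 293 tested lincRNA genes were higher and 11 lower, and 1281 of 13795 protein coding genes were higher and 1313 lower. Among 210 antisense genes 17 were higher and 6 lower, and among 660 processed pseudogenes 10 and 6. The share called was lowest at low levels: 8.2% of 2343 genes with a mean under 1 CPM were called, and 17.8% of 2725 genes over 100 CPM.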
